A study of Mus musculus with 8 samples.

Results

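RNA that an antibody against RNF17 and protein A agarose beads recovered from testes labelled homozygous RNF17 was compared with whole testis RNA of the same genotype. The set was taken as labelled: 2 homozygous IP libraries over 2 homozygous testis libraries, 4 of the 8 libraries of the series. The homozygous IP used RNF17 1774 antibody on testis lysate, the homozygous testis used none, and the heterozygous IP and heterozygous testis, with 2 libraries each, were made the same way and are set beside them. All mice were C57BL/6 and 6 weeks old. The labels do not give the allele or say what RNF17 protein remains in homozygotes, and they name no animal for any library. The p-values therefore rest on the spread of 2 libraries per group, and that spread may be technical. The protocols give proteinase K and phenol for the IP RNA and Trizol for total RNA, so recovery by antibody and beads and the way the RNA was prepared cannot be told apart in this ratio.

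RNF17 is a germ cell protein with several Tudor domains, modules that bind methylated arginines such as those on PIWI proteins. An immunoprecipitate from tissue without the intact target shows what the antibody, the beads and the washes keep on their own. Such background is often RNA that sticks to the matrix, or RNA bound to other proteins that the antibody recognises.

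The 5 genes with the most reads in the homozygous IPs all rose, and all have coding sequences dense in the overlapping purine triplets GAA, AGA and AAG. For each, the 120 bases of coding sequence with the most such triplets are printed with every triplet in capitals, to show the letters that this density stands for. Sequences are those of GENCODE M21 on GRCm38, on the sense strand, and the triplets were counted on that strand with overlaps. Nasp lies on the minus strand of chromosome 4 (coding bases 1315 to 1434), 4930578N16Rik on the minus strand of chromosome 2 (574 to 693), Ift74 on the plus strand of chromosome 4 (528 to 647), Mns1 on the plus strand of chromosome 9 (687 to 806) and 2900006K08Rik on the plus strand of chromosome 12 (475 to 594).
Nasp: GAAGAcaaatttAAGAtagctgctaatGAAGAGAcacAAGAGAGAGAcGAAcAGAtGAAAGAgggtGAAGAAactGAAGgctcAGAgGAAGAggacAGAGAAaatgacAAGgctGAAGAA
4930578N16Rik: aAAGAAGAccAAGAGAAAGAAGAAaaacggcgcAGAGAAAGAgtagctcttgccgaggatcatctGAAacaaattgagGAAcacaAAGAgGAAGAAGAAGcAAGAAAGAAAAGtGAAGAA
Ift74: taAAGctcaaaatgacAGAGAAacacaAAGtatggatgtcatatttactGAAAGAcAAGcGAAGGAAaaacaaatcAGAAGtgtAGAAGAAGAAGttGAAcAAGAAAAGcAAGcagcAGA
Mns1: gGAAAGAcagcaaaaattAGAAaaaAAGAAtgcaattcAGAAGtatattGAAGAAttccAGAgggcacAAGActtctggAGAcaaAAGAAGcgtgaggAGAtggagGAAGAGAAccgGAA
2900006K08Rik: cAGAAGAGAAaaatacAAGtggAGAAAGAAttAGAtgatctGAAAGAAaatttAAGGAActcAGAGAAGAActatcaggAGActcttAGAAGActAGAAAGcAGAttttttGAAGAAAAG

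These windows hold 37, 43, 31, 30 and 39 triplets in the order printed. Of 12819 tested coding sequences, 2.54% have a window with as many as Nasp, 0.999% as many as 4930578N16Rik, 7.88% as many as Ift74, 9.35% as many as Mns1 and 1.82% as many as 2900006K08Rik. Over the whole coding sequence Nasp has 154 triplets per kb, 4930578N16Rik 179, Ift74 130, Mns1 170 and 2900006K08Rik 158, and at most 3.23% of tested sequences are as dense as any of them.

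The matching windows of Erbb4 (minus strand of chromosome 1, coding bases 3411 to 3530) and 1700112E06Rik (plus strand of chromosome 14, 367 to 486), which have the longest gene spans among the 8 largest falls named by rule, are shown beside them.
Erbb4: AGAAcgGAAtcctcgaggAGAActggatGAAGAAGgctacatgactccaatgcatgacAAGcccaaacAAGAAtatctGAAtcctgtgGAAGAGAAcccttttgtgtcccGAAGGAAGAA
1700112E06Rik: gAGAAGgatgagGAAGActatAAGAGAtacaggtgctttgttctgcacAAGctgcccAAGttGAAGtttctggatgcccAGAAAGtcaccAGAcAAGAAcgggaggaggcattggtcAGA

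They hold 26 and 21 triplets, and 20% and 45.4% of tested sequences have a window with as many. Over the whole coding sequence Erbb4 has 73.1 triplets per kb, which 50.5% of sequences match or exceed, and 1700112E06Rik has 88.8, which 27.4% match or exceed. Over whole sets the difference was small: the median densest window held 21.5 triplets in called-higher genes, 20 in called-lower genes and 20 in all tested genes. The median density was 79.5 triplets per kb in called-higher genes, 73.3 in called-lower genes and 73.5 in all tested genes.

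Gene reads numbered 5661754 and 7344970 in homozygous IP and 7260047 and 50575649 in homozygous testis, and 15489 to 17723 entries were detected per library. Across 13334 tested entries, log2 CPM (counts per 1000000 gene reads after scaling) of the replicates correlated at 0.973 in the IP and 0.926 in the testis. Testis replicate 1 stood apart from replicate 2 in both genotypes. Its difference from replicate 2 was shared between homozygotes and heterozygotes (r = 0.605 across genes, which are not independent), whereas that of the IPs was not (r = 0.037). The germ cell helicase gene Ddx4, which marks the labelled tissue, was at 1238 and 1307 CPM in homozygous IP and at 586 and 1477 CPM in homozygous testis.

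The IP libraries were led by a few genes. Nasp, which encodes a histone chaperone, took 5.51% and 6.85% of all gene reads in the homozygous IPs, against 0.354% and 0.517% in homozygous testis. The 5 genes together took 8.59% and 10.9% in homozygous IP against 0.549% and 0.745% in homozygous testis. In heterozygotes they took 2.60% and 3.64% in the IPs against 0.894% and 0.999% in testis.

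EdgeR's quasi-likelihood test with Benjamini-Hochberg adjustment, which is behind each call here unless another tool is named, called 245 of 13334 entries higher (1.84%) and 193 lower (1.45%) in homozygous IP at an adjusted p under 0.05. Library values did not overlap between IP and testis for any of these 438 entries, nor for 7571 of all entries tested. The median log2 fold change of all tested entries was -0.015. The number of calls depended on whose spread entered the test. With all 8 libraries in 1 fit, 50 entries were called higher and 1 lower. Without IP replicate 1 the counts were 128 and 64, and without IP replicate 2 they were 53 and 36. Without testis replicate 1 they were 1206 and 1211, and without testis replicate 2 they were 2319 and 2237. Each of the last 4 fits leaves a lone library whose spread is taken from the other group. Of 42 called entries taken by the naming rule, 15 kept the call with all 8 libraries, all of them rises, 28 without IP replicate 1, 21 without IP replicate 2, 40 without testis replicate 1 and 41 without testis replicate 2. The 15 were 4930578N16Rik, Ift74, Mns1, 2900006K08Rik, Nasp, Eif5b, Kif15, Zfp944, Gm5415, Gm9839, 4930444G20Rik, AF366264, C130060K24Rik and 2 piRNA loci (piRNA_14-qA3-2286.1_sense and piRNA_9-qA1-178.1_anti). Each other call taken by that rule, including those of Catsper4, Cylc2, Arf5, Zfp942 and every fall, was lost in that fit. Nasp, Mns1, Rnf17, Sycp1, Tex12, Ybx2, Kif20b, Rsph6a, Hspa8, Hist1h2bc, Lhcgr and 2 piRNA loci (piRNA_13-qA5-464.1_sense and piRNA_2-qG3-1029.1_sense) were not called when either IP library was left out. Eif5b, Kif15, Atp5f1, Dnaic2, Mrpl41, Zfp942 and Zfp944 were not called without IP replicate 2. Scaling by library totals alone moved the median of all entries to -0.46, and list medians are given relative to TMM scaling.

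Rnf17 itself was at 218 and 402 CPM in homozygous IP and at 52.0 and 99.5 CPM in homozygous testis. Both IP values lay above both testis values, a rise of 2.03 on the log2 scale (SE 0.47, edgeR adjusted p = 0.0396, and 0.140 with all 8 libraries). In heterozygotes, scaled within their own 4 libraries, it was at 1262 and 1156 CPM in the IP and at 520 and 506 CPM in testis, a log2 fold change of 1.24. Both homozygous testis values lay below both heterozygous testis values, across tables scaled separately. Its log2 ratio in homozygotes minus that in heterozygotes was 0.82 (SE 0.62, edgeR adjusted p = 0.725). Among the 13 Tudor domain genes tested, Rnf17 was the only call, and the list median was 0.21.

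Nasp stood at 60162 and 85875 CPM in homozygous IP and at 2703 and 4988 CPM in homozygous testis. The groups were far apart in both replicates, with a log2 fold change of 4.25 (SE 1.04, edgeR adjusted p = 0.0498). The gene 4930578N16Rik, now named Ccdc173 and coding for a coiled-coil protein, was at 9375 and 14668 CPM in homozygous IP and at 164 and 199 CPM in homozygous testis. The rise of 6.05 on the log2 scale (SE 0.79, edgeR adjusted p = 0.00529) was the largest among called entries whose mean log2 CPM reached 3. Ift74, part of the intraflagellar transport complex that builds cilia and the sperm tail, was at 7581 and 13248 CPM in homozygous IP and at 209 and 414 CPM in homozygous testis (log2 fold change 5.06, SE 0.78, edgeR adjusted p = 0.0111). Mns1, a coiled-coil protein of the sperm flagellum, was at 9081 and 11089 CPM in homozygous IP and at 753 and 992 CPM in homozygous testis, a log2 fold change of 3.53. The gene 2900006K08Rik, now Bbof1 and named for the orientation of basal bodies, was at 7660 and 11424 CPM in homozygous IP and at 361 and 597 CPM in homozygous testis, a log2 fold change of 4.32. For all 5 the lower IP library exceeded the higher testis library by more than the distance between replicates of a group on the log scale.

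**Figure D1:**
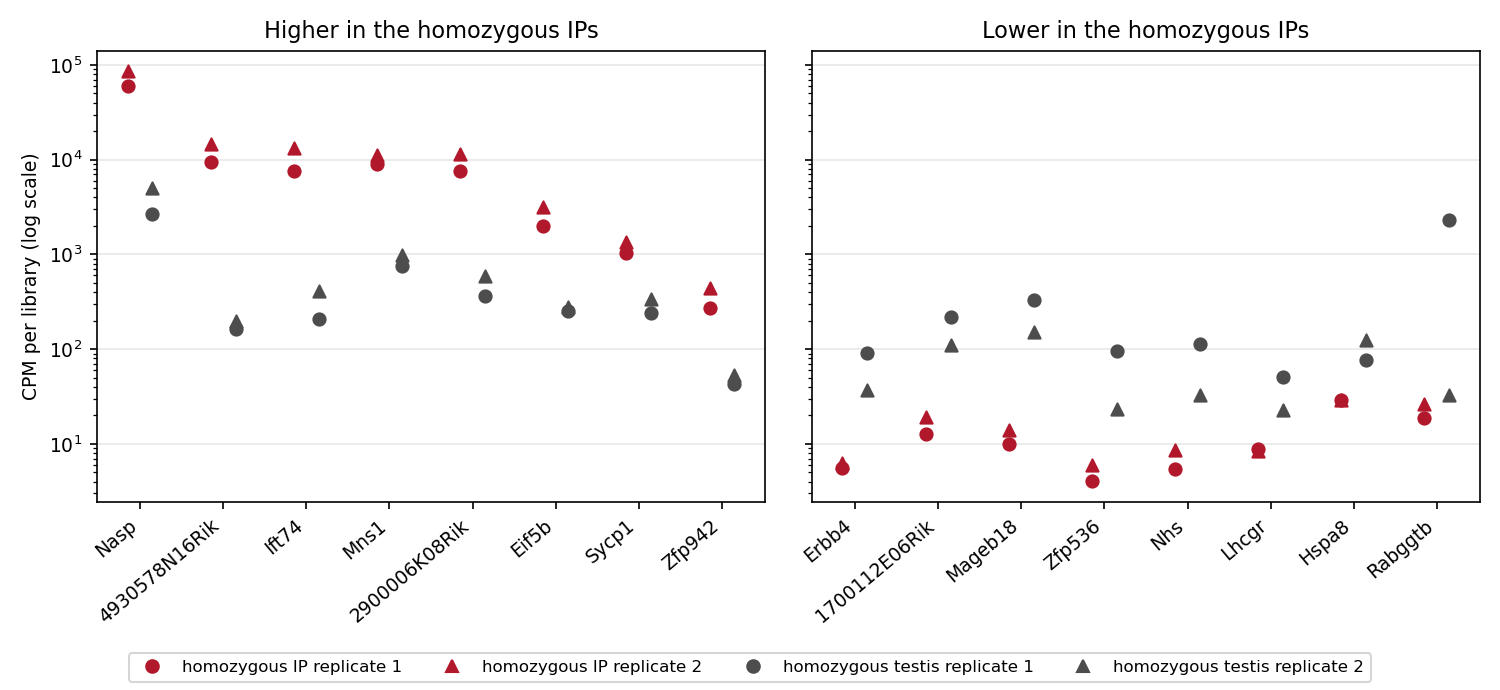
CPM per library on a log axis for 8 genes called higher (left) and 8 called lower (right) in homozygous IP over homozygous testis, with red for IP, grey for testis, circles for replicate 1 and triangles for replicate 2. Nasp reached 60162 and 85875 CPM in the IPs, and Rabggtb was high in testis replicate 1 alone.

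Of 16 spindle and centrosome genes tested, 3 rose and none fell, where 1.84% of all entries rose. The list was chosen with earlier results of these data known, so these values describe it and do not test it. Of the 16, 15 lay above 0, and the median log2 fold change was 1.10, against -0.015 over all entries. Cenpe, the kinetochore motor, was at 2161 and 2739 CPM in homozygous IP and at 224 and 588 CPM in homozygous testis, a log2 fold change of 2.59 (edgeR adjusted p = 0.0395). It was named after its value was seen, since the naming rule takes only 2 members per list. The mitotic kinesin Kif15 was at 268 and 365 CPM in homozygous IP and at 54.2 and 74.5 CPM in homozygous testis (log2 fold change 2.30, edgeR adjusted p = 0.0167). Kif20b, another mitotic kinesin, was at 509 and 632 CPM in homozygous IP and at 81.5 and 165 CPM in homozygous testis (2.21, edgeR adjusted p = 0.0314), a call lost with all 8 libraries and without either IP library. In these 3 genes both IP libraries lay above both testis libraries. The same list had a median of -0.22 in heterozygotes.

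Sycp1, the transverse filament of the synaptonemal complex that joins homologous chromosomes, was at 1027 and 1368 CPM in homozygous IP and at 241 and 335 CPM in homozygous testis (log2 fold change 2.06, edgeR adjusted p = 0.0389). Tex12, of the central element of the same complex, moved the other way, at 19.9 and 10.9 CPM in homozygous IP and 54.0 and 55.2 CPM in homozygous testis (-1.83, edgeR adjusted p = 0.0404). Both have dense coding sequences, with 173 triplets per kb in Sycp1 and 108 in Tex12, where the upper quartile of all tested sequences is 90.8. They were the 2 calls among 25 meiotic prophase genes, whose median was 0.13, where 1.84% of all entries rose and 1.45% fell.

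Single members rose in several other lists, where 1.84% of all entries rose. Eif5b, a translation initiation factor that joins the ribosomal subunits, was at 1997 and 3133 CPM in homozygous IP and at 251 and 280 CPM in homozygous testis (log2 fold change 3.27, SE 0.54, edgeR adjusted p = 0.0140). It was the single call among 23 translation factors, whose median was -0.17. Ybx2, a germ cell protein that binds and stores mRNA, was at 2693 and 2476 CPM in homozygous IP and at 436 and 648 CPM in homozygous testis (2.25, edgeR adjusted p = 0.0414). It was the single call among both 22 mRNA storage genes (median -0.085) and 20 pachytene spermatocyte genes (0.15).

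Catsper4, which belongs to the calcium channel of the sperm tail, was at 148 and 242 CPM in homozygous IP and at 13.3 and 18.5 CPM in homozygous testis. It rose by 3.61 on the log2 scale (SE 0.44, edgeR adjusted p = 0.00373), the single call among 27 round spermatid genes (median -0.024). Cylc2, a cytoskeletal protein of the sperm head, was at 289 and 337 CPM in homozygous IP and at 27.3 and 36.6 CPM in homozygous testis (3.29, edgeR adjusted p = 0.00377). It was the single call among 26 elongating spermatid genes (median -0.14). Of 16 tektin and radial spoke genes (median 0.28), Rsph6a, of the radial spoke head, and Dnaic2, a dynein intermediate chain, rose by 2.20 and 2.54 on the log2 scale (edgeR adjusted p = 0.0386 and 0.0414). Over all entries 1.84% rose, the share to set beside each of these lists.

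Atp5f1, a subunit of the mitochondrial ATP synthase, rose by 1.98 on the log2 scale, the single call among 73 nuclear genes of the respiratory chain (median 0.12). Mrpl41, a mitochondrial ribosomal protein, rose by 2.65, the single call among 70 such genes (median -0.10). Of 319 numbered zinc finger genes 5 rose and 3 fell, no more than the shares over all entries (1.84% and 1.45%), with a median of -0.14. Zfp942, on chromosome 17, was at 272 and 443 CPM in homozygous IP and at 42.4 and 53.6 CPM in homozygous testis (2.89, edgeR adjusted p = 0.0101). Zfp944, on the same chromosome, was at 93.6 and 106 CPM in homozygous IP and at 18.2 and 18.9 CPM in homozygous testis (2.43, edgeR adjusted p = 0.0111). Zinc finger genes have near copies, and how reads that fit more than 1 gene were counted is not given in the sources used here.

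Several of the largest rises were in short genes with a single exon in GENCODE M21. As a class such genes were not called higher much more often than others. Of 281 tested genes with 1 exon, 6 were called higher (2.1%, against 1.84% of all entries). Of the 1145 genes under 5 kb, 17 were called higher (1.5%). Gm5415, 3.61 kb long with 1 exon, was at 310 and 321 CPM in homozygous IP and at 5.25 and 6.27 CPM in homozygous testis (log2 fold change 5.76, SE 0.45), with the smallest adjusted p of the comparison (edgeR adjusted p = 4.20e-04). Gm9839, 1.44 kb long with 1 exon and inside the span of Khdrbs2 on the opposite strand as Gm5415 is, rose by 5.20. The genes 4930444G20Rik (1.77 kb) and AF366264 (3.16 kb), each with 1 exon, rose by 5.22 and 4.92. In heterozygotes the log2 ratios of Gm5415 and Gm9839 were 5.63 and 4.81, close to those in homozygotes, and those of 4930444G20Rik and AF366264 were 3.21 and 2.86. Arf5, a small GTPase of the Golgi, was at 66.4 and 51.9 CPM in homozygous IP and at 0.315 and 1.74 CPM in homozygous testis, from 3 and 91 reads in testis, and its log2 fold change was 5.63. C130060K24Rik was at 244 and 384 CPM in homozygous IP and at 10.7 and 8.16 CPM in homozygous testis (5.07, edgeR adjusted p = 5.37e-04), with a log2 ratio of 0.23 in heterozygotes.

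Taken over the tested coding sequences, the rises were concentrated at the dense end of the triplet scale. In the top 5% of coding sequences, those with at least 121 triplets per kb, 63 of 644 genes were called higher (9.78%, against 1.84% of all entries) and 4 lower (0.621%), and their median log2 fold change was 0.36. In the 2564 sequences with 79.8 to 95.1 triplets per kb, 0.936% were called higher with a median of -0.18. The relation was not a steady one: in the 2558 sequences with at most 54.0 triplets per kb, 2.27% were called higher with a median of 0.27, and across all 12819 sequences Spearman's rho between density and log2 fold change was -0.078. In ratios of same-numbered libraries, which the numbers only label and do not pair, the median of the top 5% was 0.41 in replicate 1 and 0.49 in replicate 2. It was -0.10 when libraries were scaled by their totals alone, a setting that moved the median of all entries to -0.46. The called share in the top 5% was 27.3% without testis replicate 1, 33.9% without testis replicate 2, 3.90% without IP replicate 1, 1.36% without IP replicate 2 and 3.33% with all 8 libraries. This feature was chosen after the values were seen and is given without a test. GC content of the coding sequence was scored as well. Its Spearman's rho with log2 fold change was 0.23 in homozygotes and 0.45 in heterozygotes. In the 2564 sequences with at most 46.7% GC, 2.77% were called higher, with a median of -0.18. Their heterozygous median was -0.57, and their homozygous minus heterozygous log2 ratio had a median of 0.45. The overlap of GC content with triplet density was not tested.

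**Figure D2:**
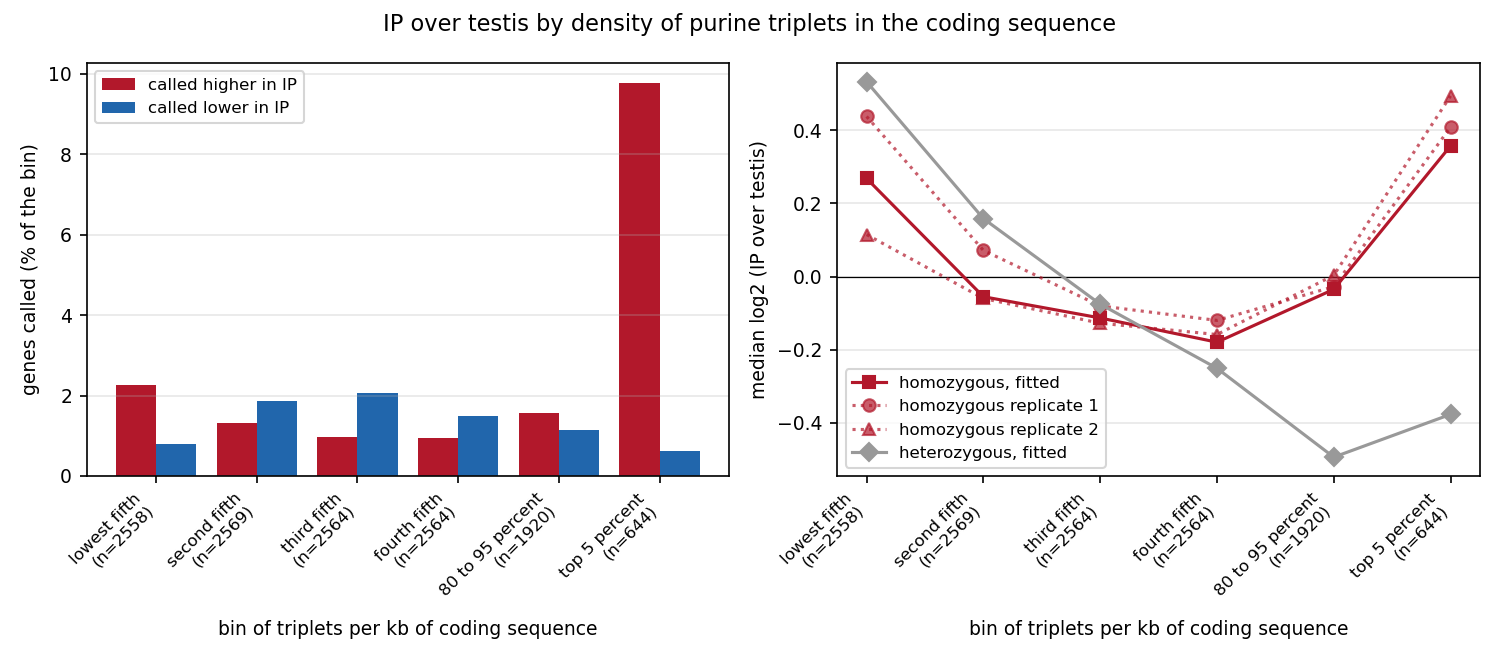
Share of genes called higher (red) or lower (blue) in homozygous IP over homozygous testis (left, % of the bin), and the median log2 ratio of IP over testis (right), by bins of GAA, AGA and AAG triplets per kb of coding sequence. In the top 5% of sequences 9.78% were called higher; the homozygous median there was 0.36 and the heterozygous median -0.38.

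Genes with such coding sequences took a larger part of the homozygous IP libraries. The 644 genes of the top 5% took 24.4% and 28.2% of gene reads in homozygous IP, against 10.3% and 10.9% in homozygous testis. Without Nasp the other 643 took 18.8% and 21.3% in homozygous IP, against 9.94% and 10.4% in homozygous testis. In heterozygotes the 644 genes took 13.4% and 15.8% in the IPs, against 14.5% and 13.1% in testis, so the groups overlapped there and did not in homozygotes.

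**Figure D3:**
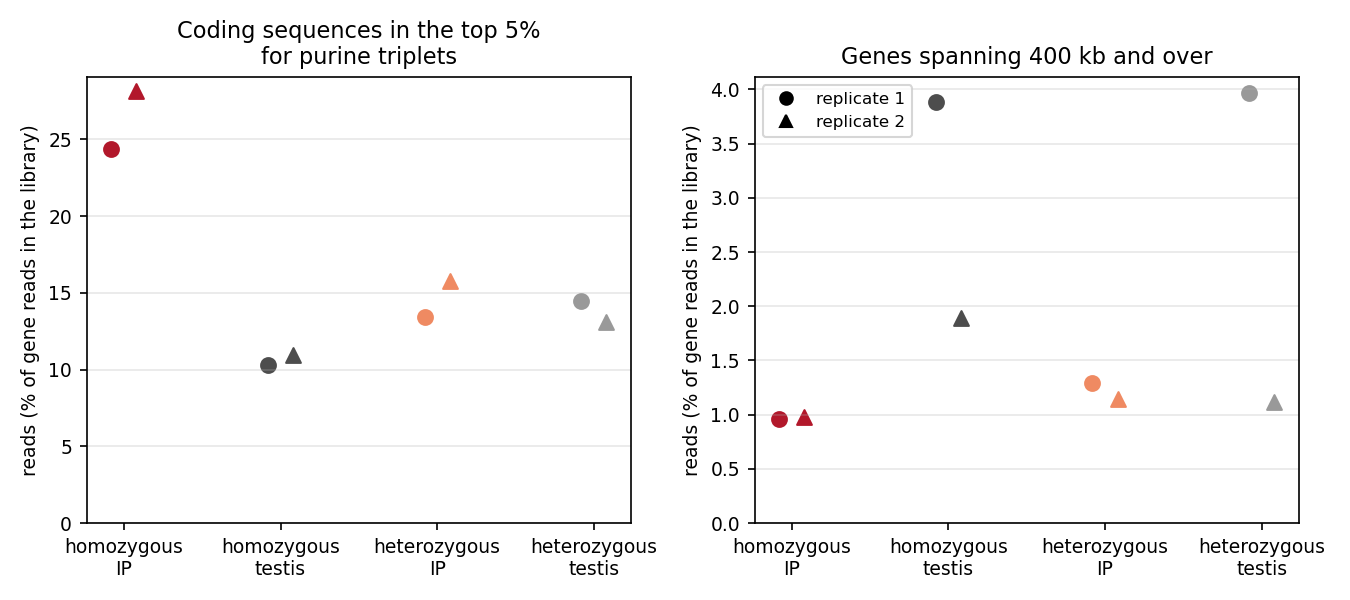
Percent of gene reads per library in the 644 genes whose coding sequence is in the top 5% for purine triplets (left) and in the 314 tested genes spanning 400 kb and over (right), by group, with circles for replicate 1 and triangles for replicate 2. On the left the homozygous IPs stand at 24.4% and 28.2%, above the other 6 libraries; on the right testis replicate 1 stands highest in both genotypes.

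The falls were mostly in genes that span long stretches of the genome. Called-lower genes had a median span of 300 kb (n = 187 with a matched span), against 25.7 kb for called-higher genes (n = 238) and 28.0 kb for all tested genes (n = 13060). Of the 314 tested genes spanning 400 kb and over, 63 were called lower (20.1%, against 1.45% of all entries) and 1 higher, and their median log2 fold change was -1.21. Of the 578 genes of 200 to 400 kb, 56 were called lower (9.69%), with a median of -0.75. Of the 1145 genes under 5 kb, 3 were called lower (0.262%), with a median of 0.19.

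Erbb4, a receptor for neuregulins that spans 1076 kb, was at 5.60 and 6.32 CPM in homozygous IP and at 90.6 and 37.1 CPM in homozygous testis. It fell by 3.41 on the log2 scale (SE 0.51, edgeR adjusted p = 0.0105). The gene 1700112E06Rik, now Lrmda, spans 1036 kb and was at 12.7 and 19.5 CPM in homozygous IP and at 219 and 111 CPM in homozygous testis (-3.35, edgeR adjusted p = 0.00816). For both genes all testis values lay above all IP values, and testis replicate 1 was the higher. Mageb18, of the MAGE family on the X chromosome, spans 481 kb and was at 10.0 and 14.2 CPM in homozygous IP and at 328 and 150 CPM in homozygous testis (-4.30, edgeR adjusted p = 0.00324). The zinc finger gene Zfp536 and the gene Nhs, with spans of 302 and 326 kb, had log2 fold changes of -3.56 and -3.37.

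The size of the fall in long genes differed with the testis library used. In genes of 400 kb and over the median log2 fold change was -0.75 without testis replicate 1 and -1.53 without testis replicate 2, against -1.01 without IP replicate 1 and -1.40 without IP replicate 2. Those genes took 0.956% and 0.981% of gene reads in homozygous IP, against 3.89% and 1.90% in homozygous testis. In heterozygotes they took 1.29% and 1.15% in the IPs, against 3.97% and 1.12% in testis. The homozygous IPs were thus below both testis libraries, and the heterozygous IPs were below testis replicate 1 alone. Without testis replicate 1 35.9% of these genes were called lower, and without testis replicate 2 59.0%; without IP replicate 1 3.68% and without IP replicate 2 4.59% were called lower. Their share called lower was 0% with all 8 libraries, where 1 entry of any span was called lower. The part of the RNA preparation or of the testis libraries in this pattern was not tested.

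**Figure D4:**
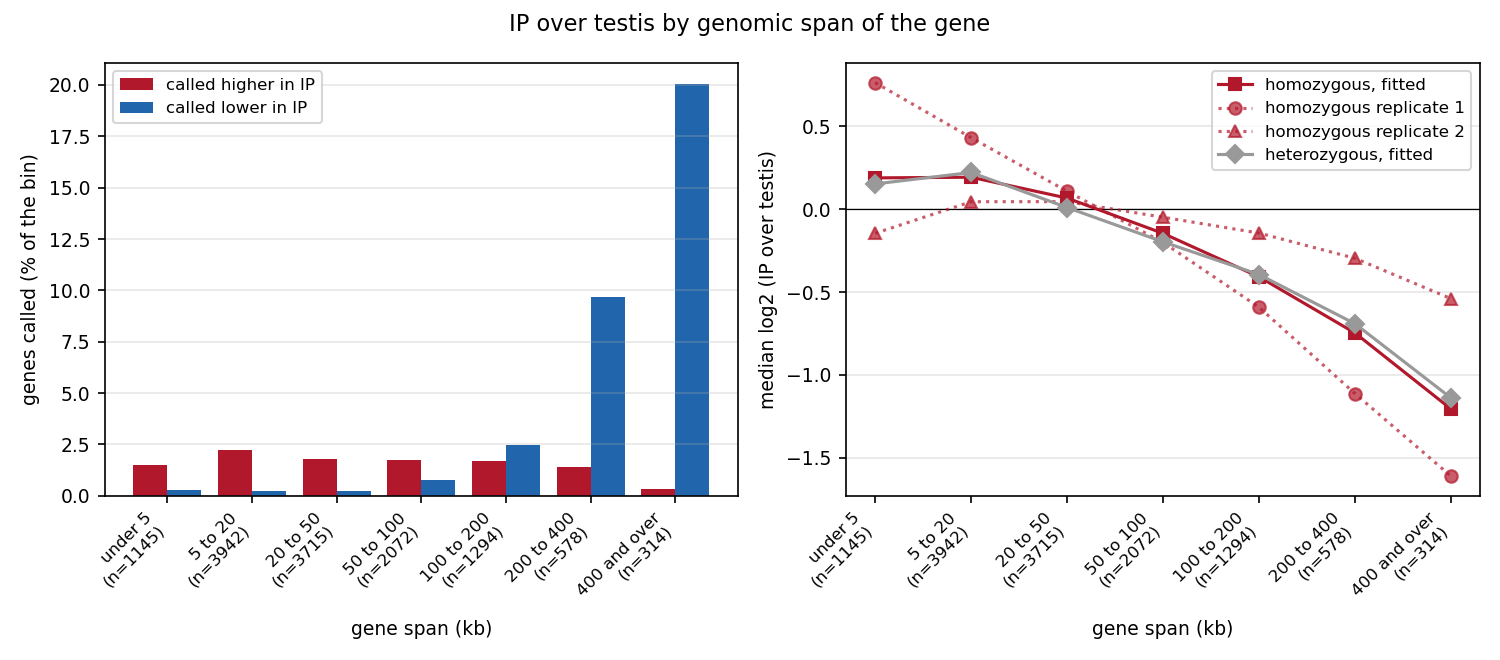
Share of genes called higher (red) or lower (blue) in homozygous IP over homozygous testis (left, % of the bin), and the median log2 ratio of IP over testis for the fit, each replicate and the heterozygous libraries (right), by gene span in kb. The share called lower reached 20.1% in genes of 400 kb and over, and ratios over testis replicate 1 fell more steeply than those over testis replicate 2; the numbers do not pair the libraries.

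Some falls were instead in short genes. Rabggtb, a subunit of the enzyme that attaches lipids to Rab proteins, spans 5.72 kb and was at 18.7 and 26.1 CPM in homozygous IP and at 2298 and 32.6 CPM in homozygous testis (-5.70, edgeR adjusted p = 0.0448). Testis replicate 1 alone was high, and the gene was not called without it. Its introns hold snoRNA genes, small RNAs that guide modification of ribosomal RNA, and GENCODE M21 lists 3 small RNAs inside Rabggtb. Hspa8, the constitutive HSP70 chaperone, with 3 inside, was at 29.1 and 29.0 CPM in homozygous IP and at 76.2 and 125 CPM in homozygous testis (-1.79, edgeR adjusted p = 0.0347). Of 19 tested genes spanning under 20 kb with 3 or more snoRNAs on their strand, 3 were called lower, Rabggtb and Hspa8 among them, and the median was -1.07; among 5015 genes of that span with none, 9 were called lower, with a median of 0.20. Whether reads of the small RNAs were counted in their hosts is not given in the sources used here.

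Cytosolic ribosomal protein genes, of which 58 were tested and 1 fell, had a median of -0.44 (0.13 in replicate 1 and -0.54 in replicate 2). Over all entries 1.45% fell. Hspa8 was the single call among 15 heat shock genes (median 0.045). Hist1h2bc, a histone H2B gene, was at 1.74 and 1.20 CPM in homozygous IP and at 8.41 and 8.62 CPM in homozygous testis (log2 fold change -2.54, edgeR adjusted p = 0.0447). It was the single call among 21 replication-dependent histone genes, whose median was -0.29 in homozygotes (0.98 in replicate 1 and -1.35 in replicate 2) and 1.60 in heterozygotes. Histone genes have near-identical copies, so their counts are uncertain.

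Among somatic cell markers, the Sertoli, Leydig and endothelial lists had medians below 0, and the peritubular myoid and macrophage lists had medians above 0. The sign differed between replicates 1 and 2 for endothelium (-0.66 and 0.027), peritubular myoid cells (-0.20 and 0.13) and macrophages (0.52 and -0.22). These are ratios of IP RNA to testis RNA of the same genotype, so they do not measure how many cells of a type were present. Of 22 Sertoli cell genes 1 fell and 6 lay above 0, with a median of -0.51. Of 11 Leydig cell genes 1 fell and 1 lay above 0, with a median of -0.63. Over all entries 1.45% fell. Lhcgr, the receptor for luteinizing hormone, was at 8.88 and 8.37 CPM in homozygous IP and at 51.3 and 22.96 CPM in homozygous testis (-2.10, edgeR adjusted p = 0.0417). Summed over the list, Sertoli genes stood at 1911 and 1304 CPM in homozygous IP and 1788 and 2023 CPM in homozygous testis, and Leydig genes at 614 and 410 CPM in homozygous IP and 866 and 948 CPM in homozygous testis.

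No member was called in the other marker lists. The 14 genes of spermatogonia had a median of -0.64, the 10 of peritubular myoid cells 0.060, the 15 of macrophages 0.24 and the 8 of endothelium -0.49. Blood and epididymis had 1 tested gene each, at -0.21 and -0.38, and the B cell list had none, with a summed level of 2.32 and 2.39 CPM in homozygous IP and 3.26 and 2.17 CPM in homozygous testis. Of the members with the highest mean, Dazl, a germ cell RNA-binding protein, was at 108 and 111 CPM in homozygous IP and at 148 and 163 CPM in homozygous testis (edgeR adjusted p = 0.418). Mylk of the myoid list had a log2 fold change of 0.12 (-0.34 with library totals alone), Mrc1 of macrophages -1.13, Cdh5 of endothelium -1.12, Alas2 of blood -0.21 and Rnase10 of the epididymis -0.38.

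Nor was any of 17 PIWI and piRNA biogenesis genes called (median -0.079), 11 axonemal dynein heavy chains (-0.064) or 36 proteasome subunits (-0.31). Ddx4 had a log2 fold change of 0.30 (edgeR adjusted p = 0.776), which was -0.081 with library totals alone and -0.23 without testis replicate 1. Dnahc8 and Psmc3 both stood at -0.65. The 1 noncoding RNA of that list present in the gene table did not pass the filter on low counts.

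The gene table also lists piRNA precursor loci, long transcripts from which PIWI-bound small RNAs are cut, 100 in sense and 100 in antisense. All 100 sense entries were tested, and 4 rose and 4 fell, where 1.84% of all entries rose and 1.45% fell. Their median log2 fold change was -0.39, and the heterozygous median was 0.86. Of the 48 antisense entries tested, 1 rose and 1 fell, with medians of -1.34 in homozygotes and 0.76 in heterozygotes. The locus piRNA_14-qA3-2286.1_sense was at 1207 and 1948 CPM in homozygous IP and at 96.4 and 144 CPM in homozygous testis (3.71, SE 0.53, edgeR adjusted p = 0.00870). The locus piRNA_2-qG3-1029.1_sense was at 28.2 and 27.5 CPM in homozygous IP and at 93.5 and 166 CPM in homozygous testis (-2.22, edgeR adjusted p = 0.0192), and piRNA_13-qA5-464.1_sense fell by 2.05. In antisense, piRNA_9-qA1-178.1_anti was at 43.6 and 58.1 CPM in homozygous IP and at 0.841 and 3.36 CPM in homozygous testis (4.48, edgeR adjusted p = 0.00647), with a log2 ratio of 4.13 in heterozygotes. The locus piRNA_9-qA5.3-24188.1_anti was at 0.772 and 1.02 CPM in homozygous IP and at 3.47 and 27.2 CPM in homozygous testis (-4.10, edgeR adjusted p = 0.0389), where testis replicate 2 was far the higher.

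Transposon families are counted in tables of their own, by uniquely and by multiply mapped reads. Transposon RNA was lower in the IPs, by an amount that differed with the testis library. Uniquely mapped transposon reads per 100 gene reads were 6.89 and 6.97 in homozygous IP and 18.8 and 8.01 in homozygous testis, or 6.93 ± 0.055 against 13.4 ± 7.61 (SD, n = 2 each, exact two-sided permutation p = 0.333, the smallest that 2 against 2 allows). Multiply mapped reads were 0.670 and 0.635 per 100 gene reads in homozygous IP and 7.10 and 1.19 in homozygous testis. Both IP values lay below both testis values, and the IP to testis ratio was 0.367 in replicate 1 and 0.871 in replicate 2 for unique reads, and 0.0944 and 0.532 for multiple reads.

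Of 997 uniquely mapped entries tested, 12 rose (1.2%) and 225 fell (22.6%), with a median log2 fold change of -0.81. Without IP replicate 2 no entry was called in either direction, without IP replicate 1 the counts were 1 and 8, and scaling within the transposon table gave 63 and 99. Antisense entries had the lower median: 189 of 513 antisense entries fell with a median of -1.13, and 36 of 484 sense entries fell with a median of -0.52. The difference between the orientations was not tested.

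Older LINE-1 families, the long elements whose copies are mostly silent remnants, held the most falls. Of 167 entries 70 fell and 2 rose, with a median of -1.13. Over all unique entries 22.6% fell and 1.2% rose, the shares to set beside each LINE class here. Summed reads of the older families, relative to gene reads, had an IP to testis ratio of 0.2999 in replicate 1 and 1.2388 in replicate 2. L1_Mus1 in antisense was at 126 and 112 CPM in homozygous IP and at 12501 and 568 CPM in homozygous testis (-5.78, SE 0.96, edgeR adjusted p = 2.17e-06). Both IP values were below both testis values, and testis replicate 1 was far the higher. Of the 12 entries of the L1Md LINE-1 families, 5 fell, with a median of -0.14. L1Md_F2 in antisense was at 226 and 264 CPM in homozygous IP and at 1075 and 1215 CPM in homozygous testis (-2.22, SE 0.61, edgeR adjusted p = 0.00276), with a like ratio in each replicate. Among Lx LINE-1 families 12 of 32 entries fell, with a median of -1.03; Lx8 in sense, with the most reads, had a log2 fold change of -0.40 (0.31 when scaled within the transposon table). Other LINE families had 4 falls among 17 entries, and their summed IP to testis ratio was 0.541 in replicate 1 and 1.57 in replicate 2. L2 in antisense had a log2 fold change of 0.49, with replicate log2 ratios of -0.19 and 1.40.

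Among endogenous retroviruses, 44 of 249 ERVK entries outside IAP fell and 7 rose (median -0.61), 21 of 126 ERV1 entries fell and 2 rose (-0.66), 21 of 116 ERVL entries fell and 1 rose (-0.93) and 40 of 170 MaLR entries fell (-0.96). Of 29 entries of IAP, an active family, 7 fell, with a median of -0.65. Over all unique entries 22.6% fell and 1.2% rose, so these counts do not set the retrovirus classes apart. Summed reads of ERVK outside IAP, relative to gene reads, had an IP to testis ratio of 0.509 in replicate 1 and 1.06 in replicate 2. IAPLTR3-int in antisense was at 45.9 and 52.2 CPM in homozygous IP and at 88.5 and 173 CPM in homozygous testis (-1.42, edgeR adjusted p = 0.0177). The most read entries of the other LTR classes were not called: RMER17C in antisense at 1.17, RMER5 in antisense at 0.29, RMER10A in antisense at 0.33, ORR1D1 in antisense at -0.60 (0.15 when scaled within the transposon table) and MamGyp-int in sense at 0.58. None of the 6 entries tested in LTR families outside these groups, MamGyp-int in sense among them, was called.

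Short interspersed elements were called in 1 B2 entry alone, a fall, among 31 B1, 10 B2, 16 B4 and ID, and 16 MIR and other entries. Their medians were -0.26, -0.53, -0.35 and -0.86 in that order. Summed B1 reads, relative to gene reads, had an IP to testis ratio of 0.509 in replicate 1 and 1.03 in replicate 2. The entries with the most reads were at -0.14 for PB1D10 in sense (0.57 when scaled within the transposon table), -0.56 for B3 in antisense (0.18 in that scaling), 0.017 for ID_B1 in sense (just below 0 with RLE scaling) and -1.28 for MIR in antisense (edgeR adjusted p = 0.0567).

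**Figure D5:**
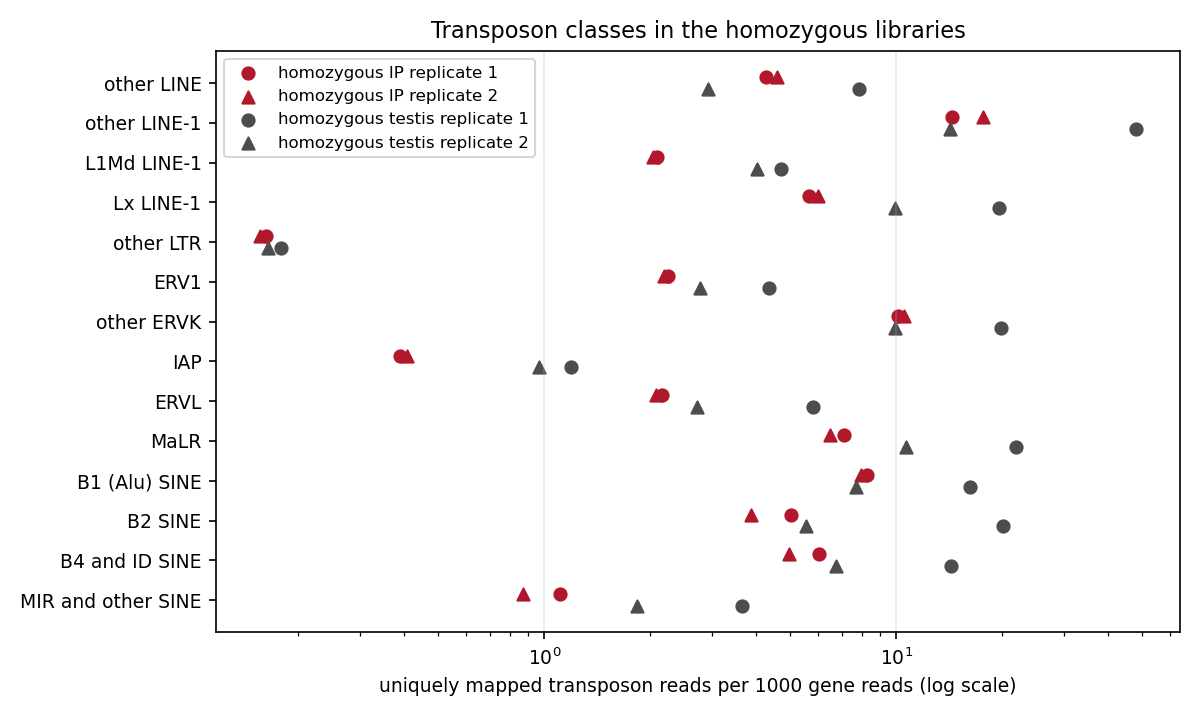
Uniquely mapped transposon reads per 1000 gene reads (log axis) in each class for the homozygous libraries, with red for IP, grey for testis, circles for replicate 1 and triangles for replicate 2. Testis replicate 1 is the highest library in each class shown. Reads were lower in both IPs than in both testis libraries in every class but other LINE, other LINE-1, other ERVK and B1. In those classes both IPs lay above testis replicate 2.

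Among the 12 rises in unique reads, HAL1-3A_ME in sense was at 5484 and 10488 CPM in homozygous IP and at 1789 and 324 CPM in homozygous testis (2.92, SE 0.89, edgeR adjusted p = 0.00798). HAL1-2a_MD in antisense was at 2217 and 3395 CPM in homozygous IP and at 628 and 618 CPM in homozygous testis (2.17, edgeR adjusted p = 0.0159). These 2 entries were chosen after their values were seen. Whether their reads lie in genes was not tested.

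Of 439 multiply mapped entries tested, none rose (0%; 1 by DESeq2) and 7 fell (1.59%), with a median of -1.96; 151 had an unadjusted p under 0.05, of which 150 were lower. The falls were called with neither the replicate block nor RLE scaling nor scaling within the transposon table. L1Md_T in antisense, which was named after its value was seen, was at 83.4 and 104 CPM in homozygous IP and at 710 and 713 CPM in homozygous testis (-2.92, edgeR adjusted p = 0.0380), with the closest testis values of the 7. L1_Mus1 in antisense was at 16.4 and 13.3 CPM in homozygous IP and at 18863 and 108 CPM in homozygous testis (-9.32, edgeR adjusted p = 0.00784). ORR1E in sense was at 6.75 and 4.95 CPM in homozygous IP and at 9286 and 5.72 CPM in homozygous testis, so its call rested on testis replicate 1, and its log2 fold change without that library was 0.012. L1Md_F2 in antisense was at 192 and 217 CPM in homozygous IP and at 1021 and 699 CPM in homozygous testis (-2.08, edgeR adjusted p = 0.0625).

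The same ratios were formed in heterozygotes. EdgeR called 0 of 13562 entries there in either direction (0%; 2460 with an unadjusted p under 0.05), and DESeq2 called 259 higher and 344 lower. Across 12895 entries tested in both, the 2 log2 ratios correlated at Pearson's r = 0.489 and Spearman's rho = 0.472, between comparisons that share no library. Of 236 entries called higher in homozygotes, 203 lay above 0 in heterozygotes, where 47.4% of all entries did; the median of the 236 was 2.30 in homozygotes and 0.86 in heterozygotes. Of 192 called lower, 188 lay below 0 in heterozygotes, where 52.6% of all entries did, with medians of -2.29 in homozygotes and -1.75 in heterozygotes. The testis replicates share a difference between the genotypes, as given for the libraries, and its part in these counts was not tested.

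The difference itself, the log2 ratio in homozygotes minus that in heterozygotes, was tested on all 8 libraries. EdgeR called 0 of 14180 entries in either direction (0%; 1373 with an unadjusted p under 0.05). DESeq2, which gave an adjusted p to 6482 entries, called 213 higher (3.29%) and 32 lower (0.494%) in homozygotes. Without heterozygous testis replicate 1, edgeR called 225 higher and 34 lower. The difference of 4930578N16Rik was 4.27 by DESeq2 (DESeq2 adjusted p = 2.91e-09; edgeR adjusted p = 0.215), with replicate log2 ratios of 5.84 and 6.20 in homozygotes and 1.63 and 2.00 in heterozygotes. Ift74 differed by 3.60, 2900006K08Rik by 3.57, Mns1 by 2.95 and Nasp by 2.86 (DESeq2 adjusted p = 5.82e-05, 1.10e-04, 8.18e-04 and 0.00600). All 4 ratios of each of these 5 genes were above 0, and the homozygous ones were the larger. C130060K24Rik differed by 4.91, Cylc2 by 2.88, Catsper4 by 2.60, Eif5b by 2.25, Kif20b by 2.20 and Kif15 by 1.90. None of these passed in edgeR, where their adjusted p lay between 0.215 and 0.361.

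DESeq2 gave an adjusted p to 458 entries in the top 5% for triplets. Of these, 69 differed upward (15.1%) and none downward, with a median difference of 1.14. Of 5782 other coding sequences with an adjusted p from DESeq2, 137 differed upward (2.37%) and 8 downward, with a median of 0.20. EdgeR called no entry for this difference. Its median difference over the 644 tested genes of the top 5% was 0.92. Their median IP over testis log2 ratios were 0.36 in homozygotes and -0.38 in heterozygotes. The long genes differed little in their medians: those of 400 kb and over had -1.21 in homozygotes and -1.14 in heterozygotes. As given above, their share of reads in the heterozygous IPs was below that of testis replicate 1 alone. In the homozygous IPs it was below both testis libraries.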

How the data were processed

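Transcriptome libraries were primed with not-so-random primers, per the labels' protocols. The counts, whole reads per entry, are as deposited by the authors: 19276 entries per gene table, 200 of them piRNA locus entries, and 1268 transposon entries in each of the unique and multiple tables. STAR, DESeq and mm9 are named in the submitters' processing notes, with roles and versions not given in the sources used here. Nothing there says how introns, strand and shared reads were counted. All value columns matched a label (0 unmapped columns).

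Each comparison was fitted with edgeR 4.0.16 (R 4.3.3, limma 3.58.1) quasi-likelihood tests, TMM scaling, filterByExpr and Benjamini-Hochberg adjustment at 0.05, on its own 4 libraries. Transposon tables used the effective library sizes of the gene table. The homozygous minus heterozygous ratio was fitted on all 8. DESeq2 1.42.0 was an alternative. CPM are counts per 1000000 reads of the scaled library; replicate log2 ratios add 0.5 CPM. The scripts were tested on simulated data.

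Named were Rnf17, up to 2 called members of each of 30 lists (otherwise the member with the highest mean), the 8 largest called rises and falls, the 5 entries with the most IP reads, up to 3 piRNA loci per orientation and the most read entry of each transposon class. Some of these entries are not reported here. The members and lists were chosen with earlier results of these data known. Gene span and triplets were chosen as features after the values were seen, and the transposon class patterns were adapted to the tables' names. Exon number, transcript and coding length, purine percent and GC content were scored too. Among the scored features, GC percent of the transcript had the Spearman's rho with log2 fold change farthest from 0 (0.30, against -0.28 for gene span). Spans and coding sequences come from GENCODE M21 on GRCm38, matched by symbol: 17285 current and 1552 older symbols matched, 239 did not. Of tested symbols 99.0% had a span and 97.2% a coding sequence of at least 300 bases.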

Additional observations from a re-analysis of the deposited data

Results flagged for a closer look

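The IP to testis ratio of 3 named entries lay on opposite sides of 0 in the 2 genotypes, in both replicates of each, and DESeq2 called the difference while edgeR did not. Zfp942 had log2 ratios of 2.66 and 3.03 in homozygotes and -2.22 and -0.41 in heterozygotes, a difference of 4.35 (DESeq2 adjusted p = 2.74e-06, edgeR adjusted p = 0.215). Zfp944 had ratios of 2.33 and 2.46 in homozygotes and -1.40 and -0.31 in heterozygotes, a difference of 3.34 (DESeq2 adjusted p = 1.03e-05, edgeR adjusted p = 0.215). The locus piRNA_2-qG3-1029.1_sense had ratios of -1.71 and -2.57 in homozygotes and 0.54 and 0.86 in heterozygotes, a difference of -2.87 (DESeq2 adjusted p = 3.35e-04, edgeR adjusted p = 0.260).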

How the results depend on the processing

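The gene comparison, with 245 entries higher and 193 lower, gave 712 and 757 with no filter on low counts, 689 and 644 by DESeq2 and 50 and 1 with all 8 libraries; library totals alone gave 893 lower. Leaving out 1 library gave 53 to 2319 higher and 36 to 2237 lower. The replicate numbers do not pair the libraries (r = -0.14 between same-numbered deviations over 2 pairs). The replicate block gave 595 and 415 for genes, 10 and 201 for unique transposon entries, 0 and 0 for multiple ones, and 0 and 0 for the difference between genotypes. It kept the calls of the 42 named entries. A crossed replicate block, added after seeing the data, gave 956 and 831.

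Unique transposon entries, with 12 higher and 225 lower, gave 63 and 99 when scaled within their table, and 0 to 61 higher and 0 to 602 lower without 1 library. Multiple entries, with 0 higher and 7 lower, gave 0 lower with RLE, the replicate block or scaling within the table, 46 lower with no filter, 1 higher and 145 lower by DESeq2, and 0 to 6 higher and 2 to 541 lower without 1 library. The IP to testis ratio of multiple reads, 0.157, lay between 0.0919 and 0.547 without 1 library. The difference between genotypes gave 213 higher and 32 lower by DESeq2, and 0 to 225 higher and 0 to 34 lower without 1 library.

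Signs changed with library totals alone for Ddx4 (-0.081), Mylk (-0.34) and the median of the sequences in the top 5% for purine triplets (-0.10), with RLE for unique ID_B1_sense (-0.0070), and with the replicate block for multiple B1_Mus1_sense (0.21). Scaling within the transposon table turned unique Lx8_sense (0.31), ORR1D1_anti (0.15), PB1D10_sense (0.57) and B3_anti (0.18), and multiple Lx2A1_sense (0.90), RLTR4_MM-int_sense (0.73), IAPEY3-int_sense (1.32) and B1_Mus1_sense (1.80). Leaving out 1 library gave log2 values of -0.23 to 1.05 for Ddx4, -1.20 to 0.13 for Dnahc8, -0.67 to 0.42 for Alas2 and -0.0070 to 0.27 for Mylk. Among unique entries it gave -0.50 to 0.20 for PB1D10_sense, -0.058 to 1.21 for L2_anti, -0.30 to 1.24 for RMER10A_anti and -0.39 to 0.44 for ID_B1_sense. Among multiple entries it gave -0.90 to 0.34 for IAPEY3-int_sense, -10.7 to 0.012 for ORR1E_sense, -0.71 to 1.05 for B1_Mus1_sense and -0.16 to 1.28 for L2a_anti. The cause was not tested for any of these.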
